A study of Citrus sinensis with 24 samples.

Results

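Read counts were analysed for 6 metabolism genes of sweet orange among the 24166 genes of the deposited table. They are MGL (Cs2g06500, a monoglyceride lipase), HPT1 (Cs1g10530, a homogentisate phytyltransferase), Cs5g20010 (a homolog of hyoscyamine 6-dioxygenase), SRG1 (orange1.1t03587, senescence-related gene 1), MAN7 (orange1.1t00612, an endo-beta-mannanase) and APS1 (Cs9g07750, an ATP sulfurylase). Names are those that the study gave to the closest Arabidopsis homolog, and none of the roles stated here was tested in orange. The study lists MGL among genes of unknown function and the others under metabolism. The 6 genes were taken from the study's list of genes whose RNA level followed the sugar/acid ratio of the fruit. To enter that list a gene had to change between the stages in at least one variety and to correlate with the ratio over these same libraries. Differences between the stages within each variety are therefore given as descriptions, without a test. The same holds for differences of Succari or Bingtang from the other varieties at 142 DPA.

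RNA was sequenced from fruits of field-grown trees of 4 varieties, collected at 142 and 45 days post anthesis (DPA), with 3 replicates of each variety and stage. Succari fruits are labelled acidless, Bingtang fruits low in acid, and Newhall and Xinhui fruits acidic. No treatment was applied. The labels name the tissue only as fruit, so each library mixes the cell types of the fruit, and fewer cells of one type cannot be told apart from less RNA in each of those cells. Levels are given in counts per 1000000 reads of the library total (CPM), always for replicates 1, 2 and 3 in that order, and summarised as mean ± SD (n = 3).

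The 6 genes act in separate parts of metabolism. MGL belongs to the hydrolases that release a fatty acid and glycerol from monoacylglycerol, the last step of breaking down storage and membrane glycerolipids. HPT1 joins homogentisate to a phytyl chain in plastids, the committed step towards tocopherols (vitamin E). Cs5g20010 and SRG1 belong to the large family of 2-oxoglutarate- and iron-dependent dioxygenases. Hyoscyamine 6-dioxygenase was named for its role in tropane alkaloid synthesis in Solanaceae, and Arabidopsis SRG1 for its expression in senescing organs. Endo-beta-mannanases cut the mannan backbone of cell walls, a step known from the softening of seed endosperm and of some fruits. ATP sulfurylase activates sulfate in the step that opens sulfate assimilation towards cysteine and glutathione.

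The 24 libraries held 3.76 to 5.89 M counted reads (1 M is 1000000). All 6 genes were among the 20739 genes tested, those that reached 0.3 CPM in 3 or more libraries. Succari replicate 3 at 142 DPA stood apart from its own group: log2 levels differed between it and the other 2 Succari libraries with an SD over genes of 1.12 to 1.14, against 0.632 to 0.923 for the other 22 pairs of replicates. Genes of seed maturation stood apart with it. The summed level of 8 such genes (oleosin, GEA6/Em6, vicilin-like, Beta-TIP, LEA4-5, CYS2 and a pair of lipid transfer genes, all from the same study list) was 3969, 4011 and 45.0 CPM in Succari at 142 DPA, 21.8 to 69.6 CPM in the 9 other libraries at 142 DPA and 34.8 to 75.5 CPM in the 12 libraries at 45 DPA. All 8 genes had reads in each of the 3 Succari libraries. In the libraries other than Succari at 142 DPA, 40.9% to 99.4% of that sum came from one lipid transfer gene, Cs5g24670, which differed in the other direction (3.59 ± 1.32 CPM in Succari at 142 DPA, against 72.9 ± 1.67 CPM at 45 DPA). Without it, a sum added after seeing the data, the other 7 genes held 3966, 4008 and 39.9 CPM in Succari at 142 DPA, 4.56 to 32.97 CPM in the 9 other libraries of that stage and 0.341 to 3.02 CPM at 45 DPA. By this sum Succari replicate 3 was far below the other 2 Succari libraries but still above every library outside its group.

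**Figure D1:**
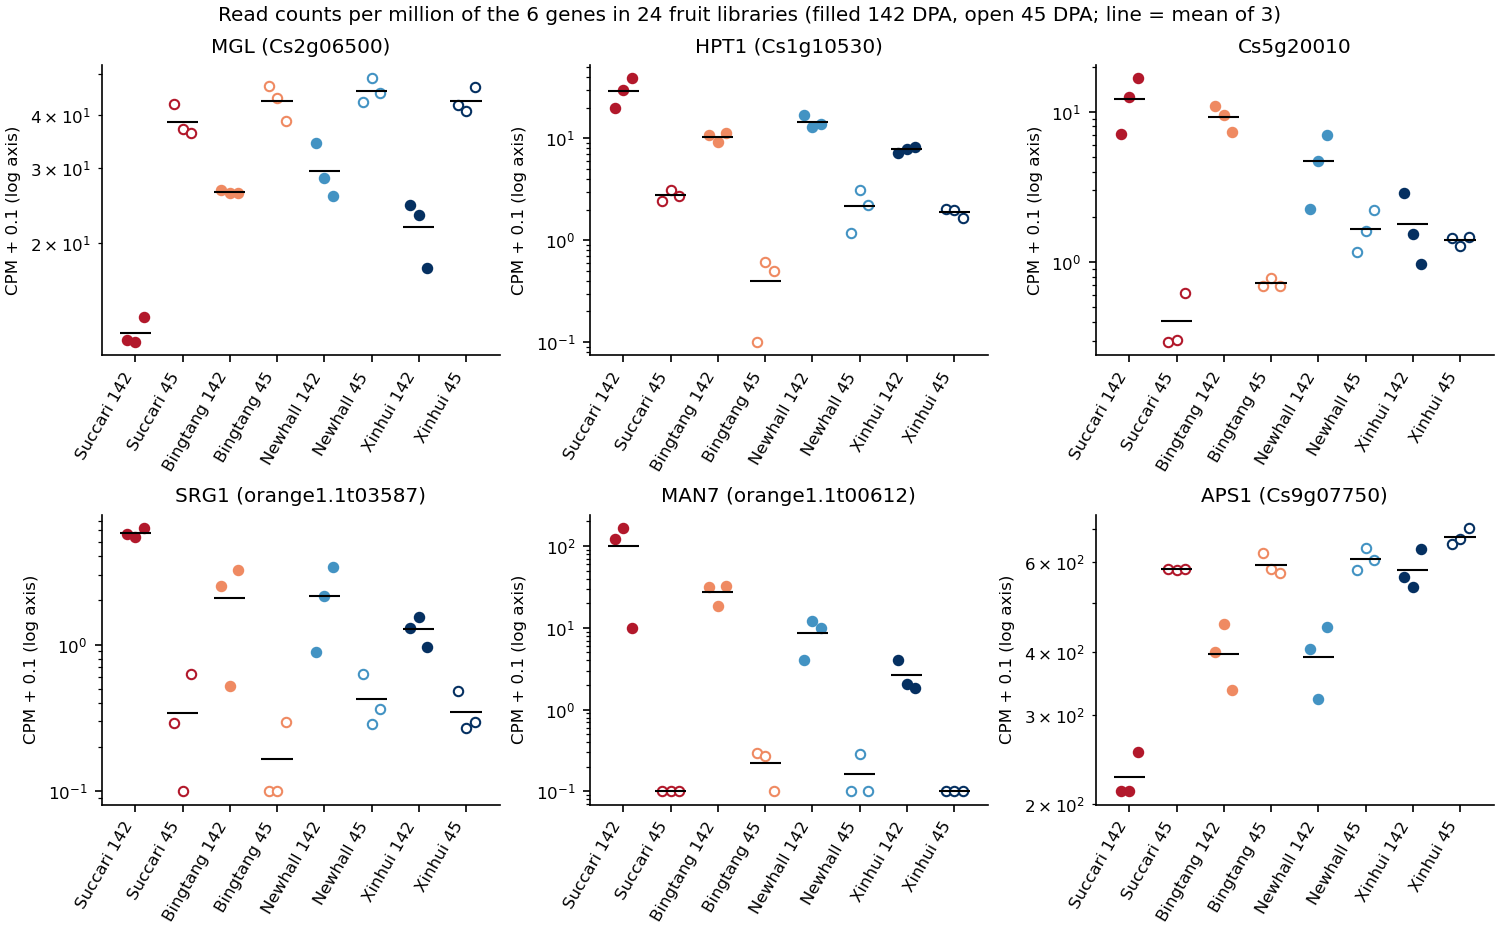
CPM of the 6 genes in each of the 24 libraries, on a log axis after adding 0.1 so that libraries without reads can be drawn. Points are libraries, filled at 142 DPA and open at 45 DPA, and lines are means of 3. MGL and APS1 lie lower at 142 DPA than at 45 DPA in every variety. HPT1, SRG1 and MAN7 lie higher in every variety, and Cs5g20010 overlaps between stages in Xinhui alone.

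MGL, the lipase, was lower at 142 than at 45 DPA in all 4 varieties, and lowest in Succari at 142 DPA. In Succari the gene had 11.7, 11.5 and 13.3 CPM at 142 DPA, against 42.4, 37.1 and 36.2 CPM at 45 DPA. Bingtang had 26.5, 26.1 and 26.1 CPM at 142 DPA, against 46.7, 43.8 and 38.6 CPM at 45 DPA. The 2 stages did not overlap in either variety, and the Succari libraries of 142 DPA lay below those of Bingtang. Newhall had 34.3, 28.4 and 25.7 CPM at 142 DPA, against 43.0, 48.8 and 45.0 CPM at 45 DPA. Xinhui had 24.5, 23.1 and 17.4 CPM at 142 DPA, against 42.2, 40.9 and 46.7 CPM at 45 DPA. Here too the stages were fully separate. Relative to 45 DPA, the level at 142 DPA was 0.316 in Succari, and it was 0.609 in Bingtang, 0.5003 in Xinhui and 0.646 in Newhall. The Succari mean of 12.2 ± 0.944 CPM at 142 DPA was 0.472 of the mean of the other 9 libraries, with all 3 Succari libraries below all 9. At 45 DPA the neighbouring varieties overlapped throughout, from 45.6 ± 2.95 CPM in Newhall to 38.6 ± 3.34 CPM in Succari. Per group of 3 libraries, 201 to 700 reads were counted, and the coefficient of variation between replicates lay between 0.874% and 17.4%. At 142 DPA this spread was above that of counting error alone in Newhall and Xinhui, and below it in Succari and Bingtang.

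HPT1, which commits homogentisate to tocopherols, ran the other way. Succari had 19.6, 29.9 and 38.6 CPM at 142 DPA, against 2.32, 3.04 and 2.63 CPM at 45 DPA. Newhall had 16.96, 12.8 and 13.7 CPM at 142 DPA, against 1.07, 3.00 and 2.13 CPM at 45 DPA. Every library of 142 DPA of these varieties was far above every one of 45 DPA. Bingtang had 10.6, 9.04 and 11.3 CPM at 142 DPA, against 0, 0.511 and 0.394 CPM at 45 DPA. Xinhui had 7.16, 7.76 and 8.15 CPM at 142 DPA, against 1.92, 1.87 and 1.56 CPM at 45 DPA. At 142 DPA the varieties were ordered Succari, Newhall, Bingtang and Xinhui, and no 2 of them overlapped. The Succari mean was 2.71 times that of the other 9 libraries. At 45 DPA Bingtang lay below the other varieties without overlap. Succari lay above Xinhui without overlap, and Newhall overlapped with both.

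The ratio between the stages therefore depended on the low end as much as on the high end for HPT1. The level at 142 DPA was 34.2 times that at 45 DPA in Bingtang, 11.01 times in Succari, 7.01 times in Newhall and 4.32 times in Xinhui. The Bingtang ratio rests on 5 reads at 45 DPA, and its 95% counting interval (exact, on the ratio of summed reads) ran from 13.9 to 103. Without Bingtang replicate 2 at 45 DPA the ratio was 52.4. The Succari interval was 7.99 to 15.4. Such intervals cover counting error only, not the spread between fruits.

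Cs5g20010, the first of the 2 dioxygenases, ranked the varieties differently at the 2 stages. Succari had 6.99, 12.5 and 16.6 CPM at 142 DPA, against 0.193, 0.203 and 0.527 CPM at 45 DPA. Bingtang had 10.9, 9.46 and 7.21 CPM at 142 DPA, against 0.594, 0.681 and 0.591 CPM at 45 DPA. Both varieties of reduced acidity were far higher at 142 DPA, and they overlapped with each other there. Newhall had 2.17, 4.64 and 6.95 CPM at 142 DPA, against 1.07, 1.50 and 2.13 CPM at 45 DPA. Xinhui had 2.78, 1.44 and 0.868 CPM at 142 DPA, against 1.34, 1.19 and 1.37 CPM at 45 DPA. Xinhui was the only variety in which the stages overlapped, and the Newhall stages were separated by a narrow gap. By mean level, the order was Succari, Bingtang, Newhall and Xinhui at 142 DPA, and Newhall, Xinhui, Bingtang and Succari at 45 DPA. Succari was thus highest by mean at the later stage, overlapping Bingtang, and lowest at the earlier one, below all 9 other libraries.

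By its estimates alone, the stage ratio of Cs5g20010 was graded over the varieties. It was 39.1 in Succari, on 197 reads at 142 DPA and 5 at 45 DPA, with a counting interval of 15.9 to 117. Without Succari replicate 3 at 45 DPA the ratio was 60.7. It was 14.7 in Bingtang (7.68 to 31.1), 2.93 in Newhall (1.89 to 5.21) and 1.31 in Xinhui (0.696 to 2.38). The intervals of Succari and Bingtang overlap, as do those of Newhall and Xinhui, so the order within each of these pairs is not settled. The Xinhui interval includes equal levels.

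SRG1, the other dioxygenase, was the most sparsely counted of the 6 genes in Succari at 142 DPA. Succari had 5.59, 5.31 and 6.16 CPM at 142 DPA, against 0.193, 0 and 0.527 CPM at 45 DPA. Bingtang had 2.39, 0.421 and 3.12 CPM at 142 DPA, against 0, 0 and 0.197 CPM at 45 DPA. The Bingtang libraries of 142 DPA spread 7.41-fold, on 2 to 16 reads. Newhall had 0.789, 2.04 and 3.28 CPM at 142 DPA, against 0.533, 0.188 and 0.266 CPM at 45 DPA. Xinhui had 1.19, 1.44 and 0.868 CPM at 142 DPA, against 0.383, 0.170 and 0.195 CPM at 45 DPA. In all 4 varieties the lowest library of 142 DPA exceeded the highest of 45 DPA. The 3 Succari libraries of 142 DPA varied by 7.59% (coefficient of variation) and stood above all 9 others of that stage, at 3.29 times their mean. The other varieties overlapped at 142 DPA, and all neighbours in the order overlapped at 45 DPA.

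The stage ratio of SRG1 was 23.7 in Succari (counting interval 8.48 to 84.1), 6.19 in Newhall (2.33 to 19.8) and 4.68 in Xinhui (1.57 to 19.1). In Bingtang, with 29 reads at 142 DPA and 1 read at 45 DPA, the ratio of summed reads was 32.0 with an interval of 5.31 to 1307. The Succari ratio became 58.8 without replicate 3 at 45 DPA, which held 3 of the 4 reads. The order of the ratios among the varieties, Xinhui included, cannot be read at this depth.

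MAN7, the mannanase, was nearly silent at 45 DPA and present in every library of 142 DPA. Only 3 reads were counted in the 12 libraries of 45 DPA, 2 in Bingtang, 1 in Newhall and 0 in Succari and Xinhui. At 142 DPA Succari had 120.3, 168 and 9.89 CPM, from 689, 916 and 53 reads. Bingtang had 31.3, 18.5 and 32.0 CPM at that stage. These levels lay above Newhall, with 3.94, 11.9 and 9.84 CPM, and Xinhui, with 3.98, 1.99 and 1.74 CPM, except that Succari replicate 3 lay inside the Newhall range. Bingtang did not overlap with Newhall or Xinhui and held 4.90 times their mean. Succari spread 16.96-fold between its replicates, the widest spread at 142 DPA of any of the 6 genes.

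Against 45 DPA, the pooled level of MAN7 over 3 libraries was at least 528-fold higher at 142 DPA in Succari and at least 13.6-fold higher in Xinhui. These bounds take a floor of 3 counts over the 3 libraries of 45 DPA. They do not cover the spread between replicates at 142 DPA. The Succari bound was 352-fold without replicate 2 and 756-fold without replicate 3 at 142 DPA. The ratio of summed reads was 219 in Bingtang (counting interval 60.1 to 1811) and 127 in Newhall (22.4 to 5052). The mean of the Succari libraries of 142 DPA was 7.77 times that of the other 9, and 5.09 times without replicate 2.

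APS1, which activates sulfate, was by far the most deeply counted of the 6, with 3731 to 10932 reads per group. Succari had 212, 213 and 253 CPM at 142 DPA, against 582, 579 and 583 CPM at 45 DPA. Bingtang had 399, 453 and 336 CPM at 142 DPA, against 627, 583 and 573 CPM at 45 DPA. Both varieties were lower at 142 DPA, and the Succari libraries of that stage lay below every library of the other varieties. Newhall had 405, 322 and 446 CPM at 142 DPA, against 579.8, 640.5 and 607 CPM at 45 DPA. Xinhui had 561, 537 and 637 CPM at 142 DPA, against 653, 667 and 703 CPM at 45 DPA. The Xinhui stages were close, with a gap smaller than the spread at 142 DPA. Relative to 45 DPA, the level at 142 DPA was 0.389 in Succari, and it was 0.642 in Newhall, 0.667 in Bingtang and 0.858 in Xinhui. At 142 DPA Xinhui lay above all other varieties, Bingtang and Newhall overlapped, and the Succari mean of 226 ± 23.7 CPM was 0.496 of that of the other 9 libraries.

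Set side by side, the 6 genes gave 5 with a stage difference of one direction and no overlap in all 4 varieties. HPT1, SRG1 and MAN7 were higher at 142 DPA and MGL and APS1 lower. Among all genes tested, 17.2% were higher and 19.1% lower by the same measure in all 4 varieties, so such a pattern was common in this fruit. In single varieties, 4 of the 6 were higher and 2 lower in Succari, where 31.2% and 32.3% of all genes were so. The counts were the same in Bingtang (background 33.6% and 32.9%) and in Newhall (38.5% and 28.5%). Xinhui had 3 higher and 2 lower (28.4% and 34.9%). Since the 6 genes were chosen for a stage difference, nothing is read from these counts.

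On the log2 scale of the edgeR fit, with its standard error, the stage difference of MGL was -1.67 ± 0.120 in Succari and between -0.77 and -0.96 in the other 3 varieties. That of APS1 was -1.37 ± 0.128 in Succari, -0.82 ± 0.126 in Newhall, -0.64 ± 0.126 in Bingtang and -0.17 ± 0.125 in Xinhui. HPT1 gave 4.89 ± 0.425 in Bingtang, 3.44 ± 0.270 in Succari, 2.63 ± 0.298 in Newhall and 2.15 ± 0.315 in Xinhui. Of the 5 genes other than MAN7, MGL, APS1 and Cs5g20010 had their largest stage difference in Succari. For HPT1 Bingtang was largest, with 5 reads at 45 DPA. The stage difference of Succari exceeded the mean of the other 3 by 3.27 ± 0.646 for Cs5g20010 and by 0.22 ± 0.456 for HPT1, an estimate smaller than its error. For MGL and APS1 it was more negative, with differences of -0.82 ± 0.136 and -0.83 ± 0.146.

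**Figure D2:**
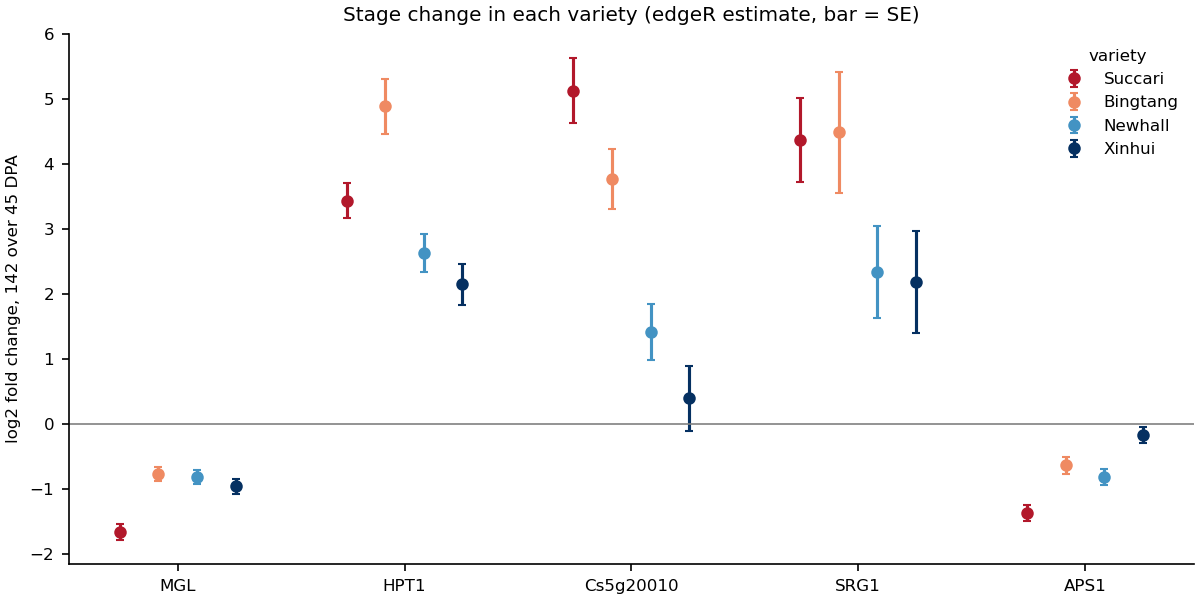
Log2 fold change at 142 over 45 DPA in each variety from the edgeR fit, with its SE as a bar, for 5 genes. MAN7 is left out because 2 of the 4 varieties had no reads at 45 DPA. Succari has the lowest points for MGL (-1.67) and APS1 (-1.37), Bingtang the highest for HPT1 (4.89), and Cs5g20010 runs down from Succari (5.13) to Xinhui (0.39).

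At 142 DPA, 2 of the 6 genes (HPT1 and SRG1) were higher in all Succari libraries than in all 9 others and 2 (MGL and APS1) were lower. Among all genes tested 5.56% were higher and 2.56% lower by this measure. The genes were selected on a trait that is extreme in Succari at this stage, so nothing is read from these shares. Against Bingtang alone the same genes were separate, 2 higher and 2 lower (background 22.8% and 16.9%). Bingtang in turn was above Newhall and Xinhui for Cs5g20010 and MAN7 (background 5.45%) and below them for none (7.84%). By the fit, Bingtang exceeded Newhall and Xinhui by 1.73 ± 0.301 for Cs5g20010 and 2.55 ± 0.582 for MAN7 on the log2 scale. For MGL and HPT1 that difference was 0.07 ± 0.0999 and -0.02 ± 0.212.

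Comparisons between varieties at 45 DPA and between Newhall and Xinhui were tested with edgeR's quasi-likelihood test, with p adjusted by Benjamini-Hochberg over all 20739 genes. To be called, a gene needed both an adjusted p below 0.05 and a difference of 2-fold or more. The genes were chosen by a stage difference in any variety and by a correlation over these same libraries, so the tests are not separate from that choice, and several comparisons share libraries.

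At 45 DPA, Succari was higher than the mean of the other 3 varieties for HPT1, by 1.26 ± 0.331 on the log2 scale (edgeR adjusted p = 0.0154). This was 1 call among 6 genes, where 3.22% of all genes were called. The Succari libraries held 2.32 to 3.04 CPM and overlapped with the other 9, the highest of which had 3.00 CPM. The other side of the comparison includes Bingtang, where HPT1 had 5 reads. Against Newhall and Xinhui alone, a comparison added after seeing the data, the difference was 0.42 ± 0.314 (edgeR adjusted p = 0.489). Over all alternatives to the HPT1 call, with this comparison counted among them, the adjusted p ran from 0.00451 to 0.489. HPT1 was also not called against the other 3 varieties without Succari replicate 2 or replicate 3 at 45 DPA. For Cs5g20010 Succari had -1.74 ± 0.615 with an adjusted p of 0.0742 in edgeR (0.00575 to 0.256 over the alternatives), which missed the threshold, although its 3 libraries lay below all 9 others, as for 3.63% of all genes. In the added comparison with Newhall and Xinhui alone the difference was -2.12 ± 0.612 (edgeR adjusted p = 0.0321), a call where 2.74% of all genes were called. That call rests on 5 Succari reads. The other genes gave -0.24 ± 0.0894 for MGL, 0.39 ± 0.835 for SRG1 and -0.16 ± 0.103 for APS1, with edgeR adjusted p from 0.0889 to 0.846. MAN7 could not be estimated at 3 reads.

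Bingtang was lower than Newhall and Xinhui at 45 DPA for HPT1, with a log2 difference of -2.52 ± 0.507 (edgeR adjusted p = 0.00495), with all 3 Bingtang libraries below the 6 others. This too was 1 call among 6, against 1.16% of all genes. Cs5g20010 was below the same 6 libraries in all 3 Bingtang libraries, with -1.13 ± 0.527 and an adjusted p of 0.282 in edgeR. By overlap alone 5.63% of all genes were lower in this way. MGL and APS1 differed by -0.04 ± 0.0932 and -0.10 ± 0.109, with 95% intervals of -0.22 to 0.14 and -0.32 to 0.11.

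Newhall and Xinhui, both labelled acidic, gave no call among the 6 genes at 45 DPA, where edgeR called 2.96% of all genes. None of the 6 reached an unadjusted p of 0.05, and DESeq2 and limma called 0 as well. The 95% intervals of the log2 difference were -0.07 to 0.35 for MGL, -0.33 to 0.16 for APS1, -0.51 to 1.03 for HPT1 and -0.73 to 1.29 for Cs5g20010. By overlap, APS1 alone was separate, lower in all 3 Newhall libraries, as were 20.1% of all genes. For the scarce SRG1 the interval of -1.50 to 2.45 leaves large differences of either sign undetectable at this depth.

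At 142 DPA the same 2 varieties differed more. The study describes a sugar/acid ratio that had risen slightly by this stage in Newhall and not in Xinhui. The comparison therefore follows the trait that chose the genes. Cs5g20010 was higher in Newhall than in Xinhui by 1.30 ± 0.413 on the log2 scale (edgeR adjusted p = 0.0258), the 1 call among 6 where 6.79% of all genes were called. Its lowest Newhall library (2.17 CPM) lay inside the Xinhui range, and the call was lost without Newhall replicate 2 or 3, without Xinhui replicate 2 or 3, and in a fit of these groups alone. APS1 was lower in Newhall, at -0.74 ± 0.126 (edgeR adjusted p = 1.76e-04) and HPT1 higher by 0.74 ± 0.241 (edgeR adjusted p = 0.0301), both without overlap and both under 2-fold. With MGL, which was also separate, 2 of the 6 genes were higher and 1 lower by overlap (background 24.9% and 10.3%). MGL gave 0.29 ± 0.115 (edgeR adjusted p = 0.0784) and SRG1 0.64 ± 0.552 (edgeR adjusted p = 0.456). MAN7 gave 1.60 ± 0.870 (edgeR adjusted p = 0.212). Without Succari replicate 3 at 142 DPA, which takes part only in the pooled spread, it was called with an edgeR adjusted p of 0.00443, within a range of 0.00443 to 0.420 over all alternatives.

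The stage difference itself was compared between Newhall and Xinhui, and none of the 6 genes was called, against 5.61% of all genes. The 1 gene with an unadjusted p under 0.05 was APS1, and DESeq2 and limma called 0. The stage difference of APS1 was more negative in Newhall than in Xinhui, with a log2 difference of -0.65 ± 0.177 (edgeR adjusted p = 0.0164), which is under 2-fold. The adjusted p ranged from 0.00324 to 0.0874 over the alternatives, and the difference was -0.42 when library totals were used without scaling factors (edgeR adjusted p = 0.0874). For MGL the difference of stage differences had a 95% interval of -0.16 to 0.46.

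**Figure D3:**
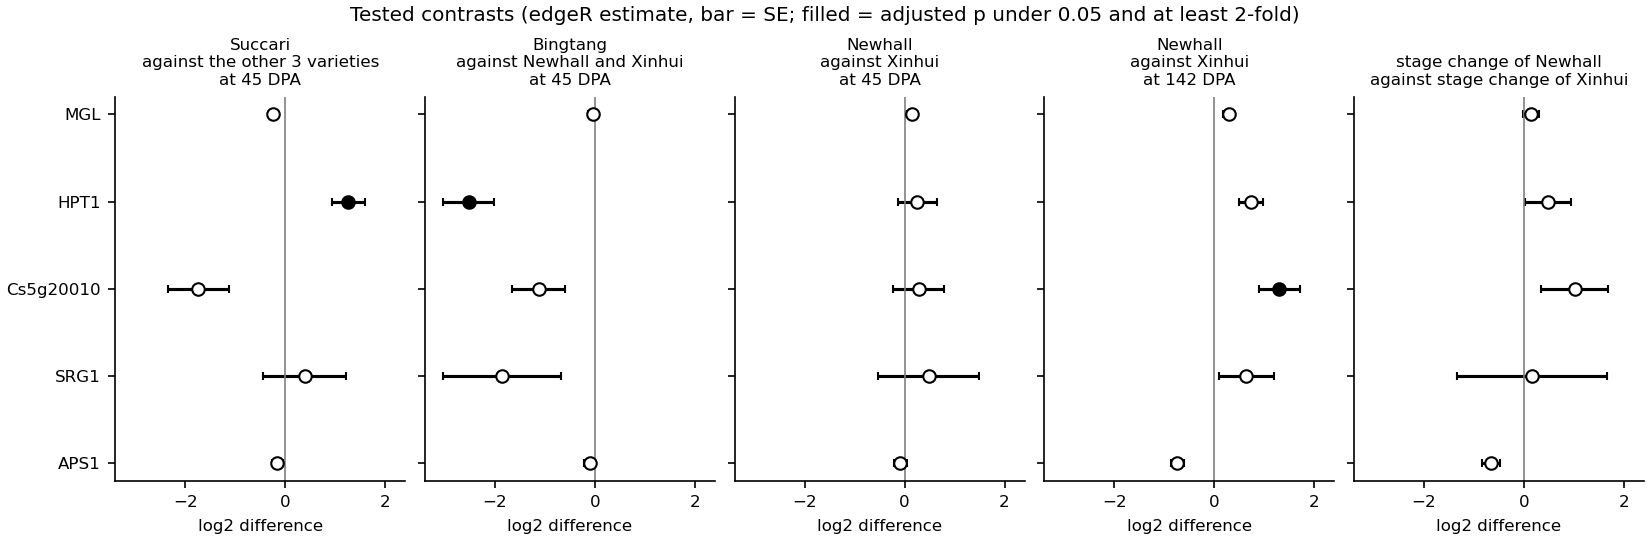
Log2 difference with its SE in the 5 tested comparisons, for the 5 genes with enough reads at 45 DPA. Filled points are calls. HPT1 is filled in Succari against the other 3 varieties (1.26) and in Bingtang against Newhall and Xinhui (-2.52), and Cs5g20010 in Newhall against Xinhui at 142 DPA (1.30).

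Succari replicate 3 at 142 DPA was low for MAN7 alone among the 6 genes. Relative to the mean of the 3 libraries, replicate 3 held 0.0996 of the MAN7 level and between 1.08 and 1.38 of the level of each other gene. MAN7 and the seed maturation genes were both high in replicates 1 and 2 and low in replicate 3, MAN7 with a smaller range (16.96-fold). In Bingtang at 142 DPA, where MAN7 had 18.5 to 32.0 CPM, the 7 seed genes without Cs5g24670 summed to 4.56 to 16.4 CPM. The part of seed RNA in the Succari level of MAN7 was not tested. MGL, HPT1, Cs5g20010, SRG1 and APS1 kept their direction for Succari against the other 3 varieties at 142 DPA with any single library left out, with log2 differences of -1.09 to -1.03, 1.27 to 1.67, 1.27 to 1.78, 1.60 to 1.93 and -1.04 to -0.94.

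**Figure D4:**
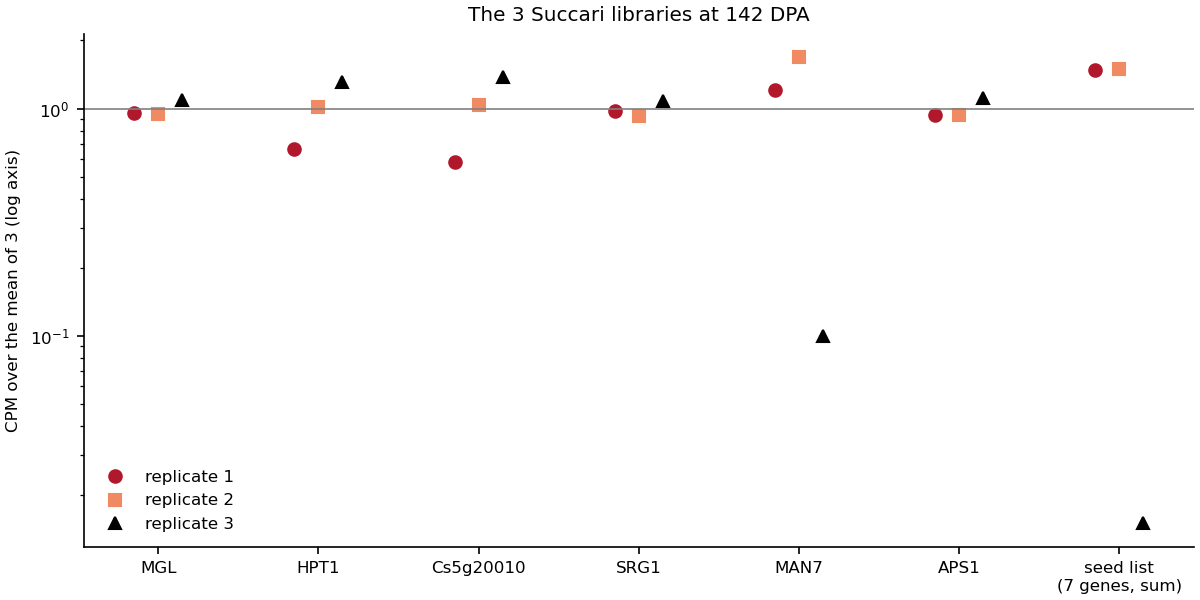
Level in each Succari library of 142 DPA over the mean of the 3 libraries, on a log axis, for the 6 genes and for the sum of the 7 seed maturation genes without Cs5g24670. Replicate 3 (triangles) lies at 0.0996 for MAN7 and near or above 1 for the other 5 genes, while HPT1 and Cs5g20010 are lowest in replicate 1 (0.666 and 0.581).

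Of the other metabolism genes of the study's list, likewise chosen on these samples, 11 of lipid, oxidative and carbon metabolism were followed. Ribosomal protein genes and a protein kinase gene of that list were not analysed here, and GEA6/Em6 was counted with the seed maturation genes. Oleosin is counted both there and among the 11. The 11 were 4 lipid genes (oleosin, a GDSL lipase, the very-long-chain fatty acid enzyme KCS6 and a minor allergen homolog), 5 oxidative genes (CYP76C4, the laccase IRX12, a copper amine oxidase, a cupredoxin and a short-chain dehydrogenase) and 2 of carbon metabolism (malate dehydrogenase and PGI). At 142 DPA 9 were higher and 2 lower without overlap in Succari, where 31.2% and 32.3% of all genes were so. In Bingtang 4 were higher and 1 lower (33.6% and 32.9%), in Newhall 5 and 1 (38.5% and 28.5%) and in Xinhui 3 and 1 (28.4% and 34.9%). Their median log2 stage difference was 4.05 in Succari and 0.54 in Xinhui, beside 0.03 and -0.07 over all genes tested. The choice of the genes used these contrasts, so nothing is read from the counts. The 4 lipid genes did not share a direction. In Succari, oleosin and the GDSL lipase were higher at 142 DPA without overlap, and KCS6 and the minor allergen homolog were lower. KCS6 had 13.6, 14.8 and 15.7 CPM in Succari at 142 DPA against 84.0, 84.8 and 85.0 CPM at 45 DPA. In Xinhui it had 39.2, 48.6 and 63.2 CPM at 142 DPA against 75.9, 76.5 and 73.3 CPM at 45 DPA. In the tested comparisons, 1 of the 11 was called for Succari against the others at 45 DPA, where 3.22% of all genes were called. It was the short-chain dehydrogenase, lower, with a log2 difference of -2.87 ± 0.923 (edgeR adjusted p = 0.0487). Succari held 0.193, 0 and 0 CPM of it at 45 DPA and overlapped with Bingtang, so the size of the difference is poorly set. For Newhall against Xinhui, 1 was called at 142 DPA (the copper amine oxidase, higher, log2 difference 5.01 ± 0.794, 6.79% of all genes). Xinhui held 0, 0.181 and 0 CPM of that gene there, so the size of this difference is poorly set too. For the stage difference of the same varieties 1 was called (KCS6, lower, log2 difference -1.04 ± 0.261, 5.61% of all genes). Neither of the other 2 comparisons gave a call among them. Of the 11 genes, 8 had their lowest Succari level of 142 DPA in replicate 3, among them oleosin with 1774, 1920 and 8.40 CPM and IRX12 with 60.3, 27.7 and 3.36 CPM, and PGI with the closer values of 235, 219 and 160.3 CPM.

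Over the 24 libraries the 6 genes formed 2 opposed sets. Pearson's r of log2(CPM + 0.1) was 0.82 between MGL and APS1, and 0.73 to 0.86 among HPT1, Cs5g20010, SRG1 and MAN7. Between the sets it was -0.68 to -0.86. The libraries share their stage and variety, so these are descriptions of 8 groups more than of 24 fruits. After the group means were taken out, r lay between -0.38 and 0.34 over the 15 pairs, with a median of 0.00. With group means left in, the size of r was 0.31 to 0.85 within the 12 libraries of 142 DPA, with the signs unchanged. Within the 12 of 45 DPA its size was 0.05 to 0.60, and the 2 opposed sets were not seen. There r was 0.58 for MGL with MAN7, 0.60 for Cs5g20010 with APS1 and -0.57 for SRG1 with MAN7, signs opposite to those over 24 libraries. MAN7 held only 3 reads in these 12 libraries, and SRG1 was scarce there too. The MAN7 values therefore rest on single reads, and nothing is read from their signs. Other pairs kept their sign, such as MGL with APS1 (0.53).

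**Figure D5:**
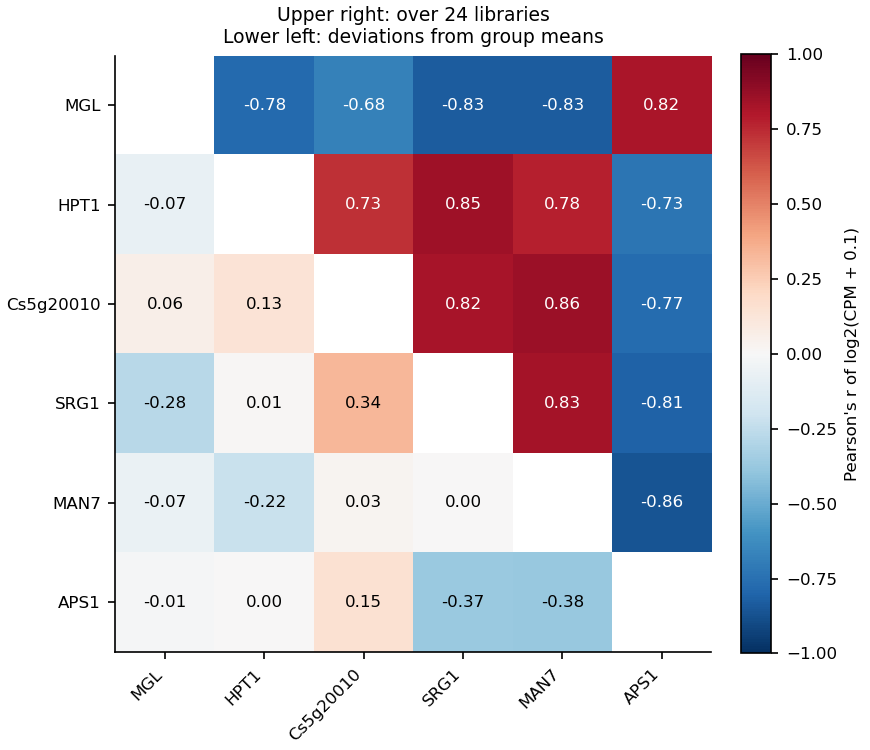
Pearson's r of log2(CPM + 0.1) for each pair of the 6 genes. The upper right part uses all 24 libraries (sizes of 0.68 to 0.86) and the lower left part the deviations from the 8 group means (-0.38 to 0.34), so the strong colours are seen only above the diagonal.

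The genes whose pattern was most like each of the 6 were found by the same r over all genes tested. MGL was closest to Cs4g08090 (r = 0.97) and HPT1 to Cs6g16370 (r = 0.96). The HPT1 partner kept an r of 0.95 within the 12 libraries of 45 DPA and 0.71 within the 12 of 142 DPA. It was also lowest in Bingtang at 45 DPA, with a mean of 1.22 CPM. SRG1 was closest to Cs4g15700 (EMB2757, r = 0.92), MAN7 to Cs6g08900 (r = 0.96), APS1 to Cs7g04660 (r = 0.91) and Cs5g20010 to Cs1g09420 (r = 0.89). Cs1g09420, like Cs5g20010, was by mean highest in Succari at 142 DPA and lowest in Succari at 45 DPA, with means of 637, 548, 292 and 278 CPM in Succari, Bingtang, Newhall and Xinhui at 142 DPA, against 80.4, 127, 201 and 367 CPM at 45 DPA. Unlike Cs5g20010, it was lower at 142 than at 45 DPA in Xinhui, and Xinhui rather than Newhall was highest at 45 DPA. An r of at least 0.9 was shared by 115 genes with MGL, 48 with HPT1, 241 with MAN7, 5 with SRG1, 4 with APS1 and 0 with Cs5g20010. With Spearman's rho in place of Pearson's r, none of the closest 2 partners of any of the 6 genes was the same.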

How the data were processed

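The authors deposited one table of counts of uniquely assigned reads for 24166 genes in 24 libraries. Its name speaks of RPKM, but the values are whole numbers whose sums equal the totals in the column headings, so they were used as raw counts. Neither the aligner nor the genome build is given in the sources used here. Reads that match near-identical genes equally well would be missing from such counts, and how far this touches the dioxygenase genes was not tested.

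CPM used the column totals. Genes that reached 0.3 CPM in 3 or more libraries entered the fit with edgeR 4.0.16 (quasi-likelihood, TMM, 8 groups, all 24 libraries) in R 4.3.3, checked on simulated counts. Calls needed an adjusted p below 0.05 and a difference of 2-fold or more. A fold against a group without reads was bounded at 3 counts over that group, and counting intervals are exact (95%). Correlations used log2(CPM + 0.1). Alternatives were DESeq2 1.42.0, limma 3.58.1, other scalings, filters and pseudocounts, fits of the compared groups, a replicate block and each library left out; Succari against Newhall and Xinhui was added after seeing the data.

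The 6 genes and the other lists were chosen with earlier results of these data known. All 6 are named, with the genes closest in r and 11 other metabolism genes of the study's list. The replicates are called biological by the study, but nothing in the labels says which trees or fruits they came from, so p-values measure the spread between these samples. No sequences are shown, since 0 of the 24166 gene IDs matched the reference table used.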

Additional observations from a re-analysis of the deposited data

Results flagged for a closer look

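APS1 differed between Newhall and Xinhui in its change from 45 to 142 DPA, by -0.65 on the log2 scale (edgeR's quasi-likelihood test of the interaction, adjusted p = 0.0164). The difference is under 2-fold. By library totals, the level of APS1 at 142 DPA relative to 45 DPA was 0.642 in Newhall and 0.858 in Xinhui, and the fit without scaling factors gave -0.42 with an adjusted p of 0.0874 in edgeR, which missed the threshold. Over all alternatives the adjusted p ran from 0.00324 to 0.0874. The libraries compared were also among those used to choose the gene. The study describes a sugar/acid ratio that rose slightly from 45 to 142 DPA in Newhall and not in Xinhui. The test therefore follows the trait that chose the gene. It is the single one of the 6 genes for which this test of a difference between the 2 acidic varieties passed the adjusted threshold.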

How the results depend on the processing

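For Succari against the other 3 varieties at 45 DPA, 1 of the 6 genes was called (HPT1). The count was 2 with limma at a pseudocount of 0.1 and 2 in a fit of the groups compared alone, both with Cs5g20010 added, and 0 with limma at a pseudocount of 1. Leaving out single libraries gave 0 to 2 calls, with 0 without Succari replicate 2 or 3 at 45 DPA and 2 without Newhall replicate 1 at 142 DPA. For Newhall against Xinhui at 142 DPA the range was also 0 to 2. In a fit of those groups alone the 1 call was MAN7 (edgeR adjusted p = 0.0345) and not Cs5g20010. With limma at a pseudocount of 0.5 the 1 call for Succari at 45 DPA was Cs5g20010 and not HPT1. No called value changed sign. The Xinhui stage difference of Cs5g20010, smaller than its error, ran from -0.06 to 0.66 with single libraries left out.

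Replicate numbers here give the order of the libraries within each group, not the numbers in the library names. By this order, 1 of 84 same-numbered pairs had an r of deviations over 0.1. Pairing by the numbers in the library names was not tested. With the replicate number as a block the calls were 1, 1, 0, 1 and 0 in the 5 tested comparisons, as without it. Over all genes, 668 were called for Succari at 45 DPA, against 369 with limma at a pseudocount of 1 and 441 without Succari replicate 2 at 45 DPA. In fits of the compared groups alone, 430 genes in place of 240 were called for Bingtang at 45 DPA and 989 in place of 614 for Newhall against Xinhui at 45 DPA.

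Without scaling factors the median log2 difference of all genes moved by 0.16 for Newhall against Xinhui at 142 DPA and for the Newhall stage difference, and by 0.22 for the difference of stage differences. The higher share of calls then became 70.1% in place of 54.7% and 71.1% in place of 43.9% in the 2 tests concerned, and the Newhall stage difference became -0.63 for MGL and -0.64 for APS1. Few reads limit HPT1, Cs5g20010, SRG1 and MAN7 at 45 DPA: limma at larger pseudocounts shrank their stage differences, to 1.35 for SRG1 in Bingtang.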
